A study of Mus musculus with 11 samples.

Results

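Aminoacyl-tRNA synthetases were followed across RNA sequencing libraries of primary neural stem cells (NSCs), which the study's text describes as taken from the hippocampus of mouse embryos. The set holds 37 genes of the 53801 in each table, chosen by name and matched to the gene identifiers, of which 21 encode enzymes taken as cytosolic and 16 encode mitochondrial enzymes, whose symbols end in 2. Cells were kept in proliferation medium, which contains EGF and bFGF, or in differentiation medium without these growth factors, and received 1 µM 4HBP or ethanol (EtOH, the control) for 7 days. There were 3 libraries of 4HBP and 3 of control cultures in proliferation medium, and 3 of 4HBP and 2 of control cultures in differentiation medium. The labels spell the compound as 4-hydroxybenzoic acid and the study's text as 4-hydroxybenzophenone, and the abbreviation 4HBP is used here. The labels give no genotype, strain or age and do not say whether replicates came from separate animals or cultures, so p-values measure the spread between these libraries, which may be technical.

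A synthetase joins an amino acid to the tRNAs that carry it, and the charged tRNAs then feed the ribosome. Most serve a single amino acid, while Eprs serves both glutamate and proline. The cytosolic enzymes serve translation of nuclear mRNAs and the mitochondrial enzymes, encoded in the nucleus and imported, serve the few proteins made from mitochondrial DNA. A single gene (Gars for glycine, Kars for lysine) supplies both compartments, and mitochondrial glutaminyl-tRNA is made by charging with glutamate through Ears2 followed by amidation. Several cytosolic enzymes sit in a multi-synthetase complex held together by the scaffold proteins Aimp1, Aimp2 and Eef1e1. Many cytosolic synthetase genes, but few mitochondrial ones, are known targets of ATF4, a transcription factor made when the kinases PERK or GCN2 phosphorylate eIF2α.

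Library totals lay between 20822921 and 23438463 expected counts, at which 3 counts correspond to 0.128 to 0.144 CPM, the counts scaled to a common library size. The 37 genes were all tested in every comparison, and the lowest value of any of them in any library was 109 counts, for Yars2. The NSC markers Sox2, Nes and Vim were present in all libraries (Sox2 at 230.3 to 343.7 CPM), and the astrocyte gene Gfap and the oligodendrocyte lineage gene Olig2 were present as well. Summed over 5 markers each, microglial genes reached at most 0.7611 CPM and endothelial and fibroblast genes at most 1.374 CPM, with Cdh5 at 0 in every library. In proliferation medium, replicate 3 of the 4HBP libraries stood apart from replicates 1 and 2, with a mean chi-square per gene of 25.58 and 22.99 against 5.62 between these, and the counts of synthetases and of the main gene lists are also given without it, an alternative that for the lists was chosen after seeing the data. Its level of the proliferation gene Mki67 was 155.7 CPM, against 278.7 and 315.1 CPM.

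Promoter windows are shown for the genes that hold the element bound by ATF4 and its partners, since targets of ATF4 are compared with other synthetases below. RefSeq windows (GRCm38.p6, 250 bases before to 50 after each gene's start) were listed for 28 of the 37 genes, 14 cytosolic and 14 mitochondrial, and not for Cars, Hars, Lars, Nars, Rars, Vars, Wars, Hars2 and Pars2. The core TGATGNAA, the form bound by pairs of C/EBP and ATF proteins, was searched on both strands and was found in 5 of the 14 cytosolic windows and 0 of the 14 mitochondrial ones, beside 4.06% of all 27025 windows. The stricter form TGATGCAA, each match of which is also a match of the first, was in 4 cytosolic windows (Aars, Iars, Tars and Yars) beside 0.93% of all windows. The cyclic AMP response element TGACGTCA was in 0 of the 28 windows beside 1.88% of all. A match describes letters in these windows and is not a measured binding site. The 5 windows that hold the core are shown 5′ to 3′ along the gene's strand, with the core in capitals on whichever strand it was read, so TTGCATCA and TTTCATCA are its reverse forms.
Aars: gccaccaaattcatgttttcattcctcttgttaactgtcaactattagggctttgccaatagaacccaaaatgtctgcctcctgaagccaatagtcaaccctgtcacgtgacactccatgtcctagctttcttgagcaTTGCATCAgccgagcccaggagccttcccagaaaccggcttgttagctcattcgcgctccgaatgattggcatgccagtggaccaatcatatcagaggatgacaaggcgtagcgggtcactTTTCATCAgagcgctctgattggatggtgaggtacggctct
Tars: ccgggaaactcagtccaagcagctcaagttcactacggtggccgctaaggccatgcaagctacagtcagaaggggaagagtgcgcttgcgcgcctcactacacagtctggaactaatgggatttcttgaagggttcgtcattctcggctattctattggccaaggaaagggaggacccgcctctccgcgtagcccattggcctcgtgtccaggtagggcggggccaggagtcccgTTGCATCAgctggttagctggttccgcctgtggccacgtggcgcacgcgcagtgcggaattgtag
Yars: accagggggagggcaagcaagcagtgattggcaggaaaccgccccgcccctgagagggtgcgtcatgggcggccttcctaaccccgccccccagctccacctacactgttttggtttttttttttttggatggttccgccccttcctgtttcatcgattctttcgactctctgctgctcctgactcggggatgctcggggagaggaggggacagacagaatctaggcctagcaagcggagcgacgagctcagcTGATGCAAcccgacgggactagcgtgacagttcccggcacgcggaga
Iars: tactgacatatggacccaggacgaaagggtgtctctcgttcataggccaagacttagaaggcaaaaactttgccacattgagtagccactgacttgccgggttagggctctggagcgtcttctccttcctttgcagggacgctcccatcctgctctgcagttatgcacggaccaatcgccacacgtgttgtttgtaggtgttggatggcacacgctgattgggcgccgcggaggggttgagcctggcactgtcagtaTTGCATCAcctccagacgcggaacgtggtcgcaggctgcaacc
Gars: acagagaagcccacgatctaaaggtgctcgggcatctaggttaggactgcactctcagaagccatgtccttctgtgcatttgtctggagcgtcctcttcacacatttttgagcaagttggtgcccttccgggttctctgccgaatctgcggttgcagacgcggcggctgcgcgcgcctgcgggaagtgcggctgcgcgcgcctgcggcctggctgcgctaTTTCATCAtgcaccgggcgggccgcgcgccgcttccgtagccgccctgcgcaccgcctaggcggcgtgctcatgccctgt

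These windows lie at chr8:111033592-111033891 on the plus strand for Aars, chr15:11399609-11399908 on the minus strand for Tars, chr4:129189653-129189952 on the plus strand for Yars, chr13:49681880-49682179 on the plus strand for Iars and chr6:55037751-55038050 on the plus strand for Gars. The match ended 7 bases before the start in Tars, 22 bases before it in Gars and 104 bases before it in Aars, which also held a second match after the start. In Iars and Yars the match lay after the start. Of the 5 genes, Aars, Gars, Tars and Yars passed the test for 4HBP in proliferation medium described next, and Iars had an adjusted p of 0.0696. Of the 8 cytosolic genes with a window that passed that test 4 held the core, and Eprs, Farsb, Mars1 and Sars did not. Wars, Nars, Lars and Rars also passed but had no window listed, so this count is partial.

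In proliferation medium most mRNAs of cytosolic enzymes were higher with 4HBP, and no mitochondrial one passed the test. By edgeR's quasi-likelihood test with Benjamini-Hochberg adjustment over 14449 genes, 12 of the 21 cytosolic genes rose at an adjusted p under 0.05 and 0 fell, where 3.74% of all genes tested rose and 3.69% fell. The fold change of the cytosolic genes had a median of 0.42 on the log2 scale (range -0.20 to 1.29), beside a median of 0.00 over all genes tested. Of the 16 mitochondrial genes 0 passed in either direction, with a median of -0.04 (range -0.30 to 0.49); 2 of them, Nars2 and Rars2, had an unadjusted p under 0.05, and DESeq2 called 1. In 15 cytosolic genes the lowest 4HBP library lay above the highest control library and in 1, Qars, the order was the opposite, against 16.1% and 15.1% of all genes tested. Such a gap was present in 3 mitochondrial genes (Nars2, Ears2 and Rars2), a share near that of all genes. Without 4HBP replicate 3 the cytosolic groups did not overlap in 19 genes as higher and 1 as lower and the mitochondrial groups in 3 and 1, against 22.4% and 21.8% of all genes tested.

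Wars, the tryptophanyl-tRNA synthetase (chr12:108860030-108894174, minus strand, GRCm38), changed most. Its level was 177.8, 236.8 and 244.1 CPM in the 3 libraries with 4HBP and 88.45, 84.22 and 97.07 CPM in the 3 controls, so the lowest treated library was above every control. The fold change was 2.44, or 1.29 on the log2 scale (SE 0.12, adjusted p = 0.00228, edgeR). Eprs, the bifunctional enzyme for glutamate and proline and a member of the complex (chr1:185363044-185428360, plus strand), was at 614, 677.6 and 740.3 CPM with 4HBP and 380.9, 343 and 429.6 CPM in controls, with a log2 fold change of 0.82 (SE 0.11, adjusted p = 0.00599). Here too the groups did not overlap.

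Nars, which charges asparagine, was at 474.5, 518.7 and 490.1 CPM against 295.5, 273.5 and 334.1 CPM, a log2 fold change of 0.72 (SE 0.09, adjusted p = 0.00525, edgeR). Lars, which charges leucine and is also known as a leucine sensor upstream of mTORC1, was at 178.5, 220.7 and 228.6 CPM against 129.5, 116.4 and 139.5 CPM, a log2 fold change of 0.70 (SE 0.11, adjusted p = 0.00987). In both genes each treated library exceeded each control library. Rars, the arginine enzyme that docks on Aimp1 in the complex (chr11:35808381-35834506, minus strand), was at 130.8, 154.1 and 158.4 CPM against 90.15, 87.43 and 102.1 CPM, a log2 fold change of 0.67 (SE 0.10, adjusted p = 0.00771). Tars, the threonine enzyme whose promoter window is shown above, was at 178.6, 188.9 and 184.8 CPM against 124, 109.2 and 139.5 CPM, a log2 fold change of 0.57 (SE 0.09, adjusted p = 0.0117). The plot of single libraries shows these 6 cytosolic genes beside the 6 mitochondrial genes with the smallest p.

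**Figure D1:**
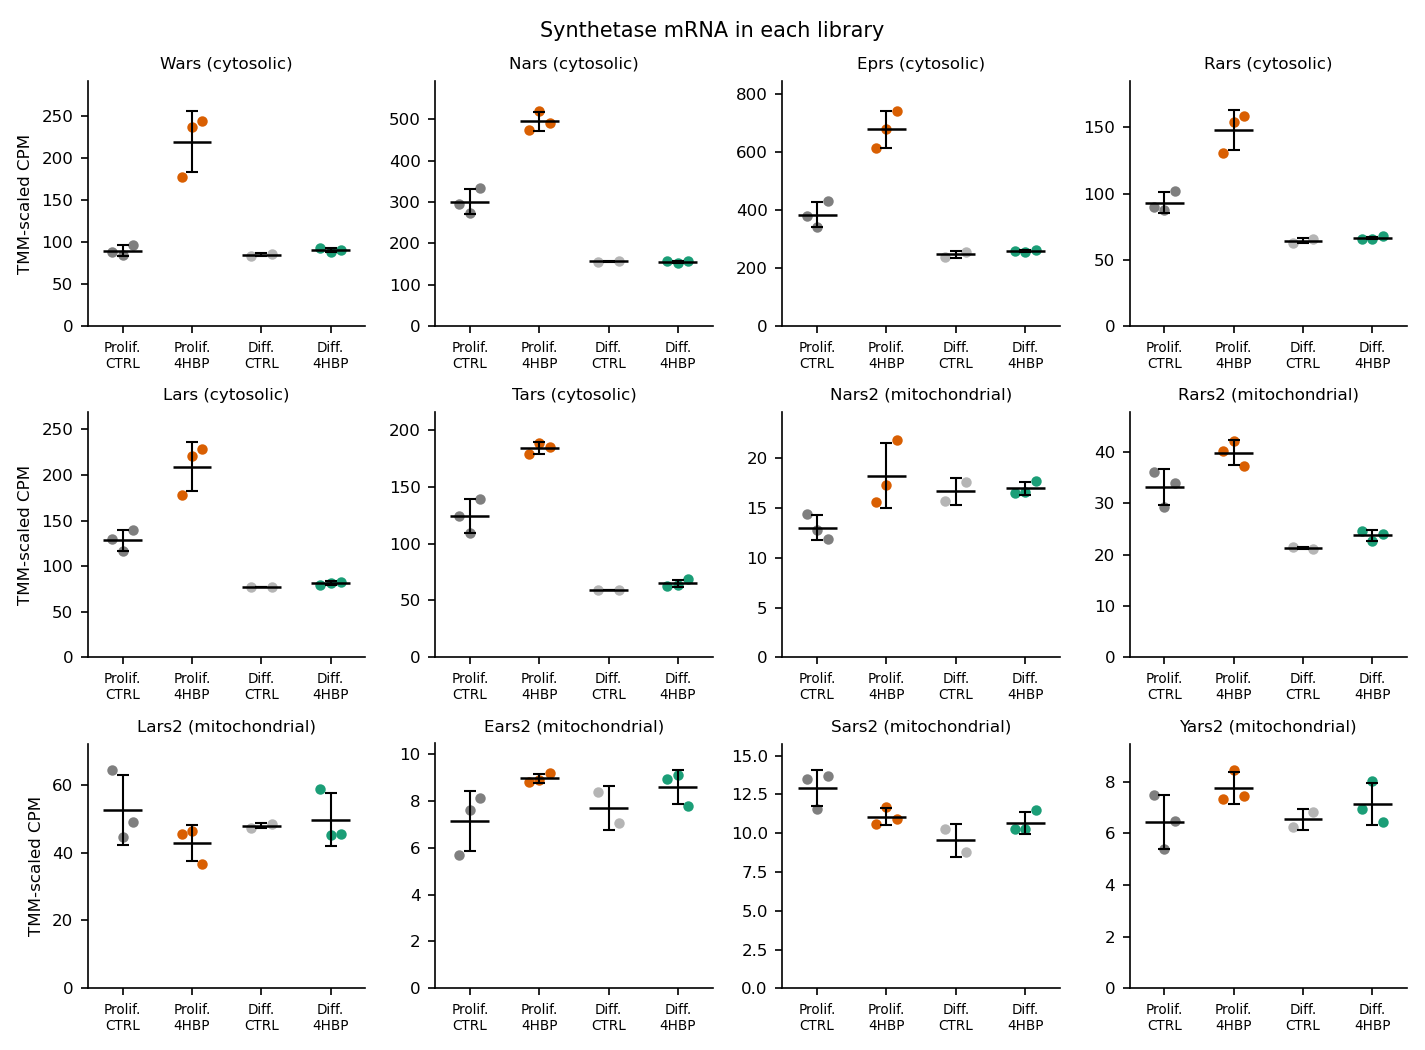
Level of 12 synthetase mRNAs in TMM-scaled CPM (y axis, from 0) in each of 11 libraries (points), by medium and treatment (x axis), with the group mean (line) and SD (bars); CTRL is EtOH. In the 6 cytosolic genes the 3 proliferation libraries with 4HBP lie above the 3 controls, while Lars2, Sars2 and Yars2 overlap.

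The remaining cytosolic genes that rose were Sars (serine, log2 fold change 0.71, adjusted p = 0.0137, edgeR), Gars (0.63, 0.0172), Farsb (phenylalanine, 0.57, 0.027), Aars (alanine, 0.45, 0.0362), Mars1 (methionine, 0.42, 0.0167) and Yars (tyrosine, 0.40, 0.0402). Sars stood at 333.1, 395.1 and 452.8 CPM with 4HBP and at 250.6, 211 and 260.5 CPM in controls, and the groups did not overlap. Part of Aars (13.66% of its sequence in stretches of 40 bases) is shared with the overlapping gene Exosc6, so its count may hold reads of that gene. A stretch of Mars1 (1.99% of its exons) overlaps Ddit3, the stress gene CHOP, on the opposite strand. The library kit was stranded, but the sources do not say that counting used the strand.

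The other cytosolic genes did not pass. Vars (valine) had a log2 fold change of 0.38 with an adjusted p of 0.0903 and Iars (isoleucine) 0.34 with 0.0696, and Cars (cysteine) and Dars (aspartate) had 0.30 and 0.23 with adjusted p-values of 0.127 and 0.112 (edgeR). Of the Iars sequence 10.56% is shared with a second gene, Gm4849. Farsa (0.07), Kars (0.04), Tarsl2 (0.02) and Hars (0.00) were near 0 on the log2 scale, with SEs from 0.08 to 0.13. Qars, the glutamine enzyme, was at 62.65, 58.67 and 53.23 CPM against 71.9, 64.68 and 63.69 CPM, a log2 fold change of -0.20 (SE 0.09, adjusted p = 0.185). Farsa and Farsb encode the subunits of one enzyme, and their log2 fold changes were 0.07 and 0.57; the difference between the genes was not tested.

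**Figure D2:**
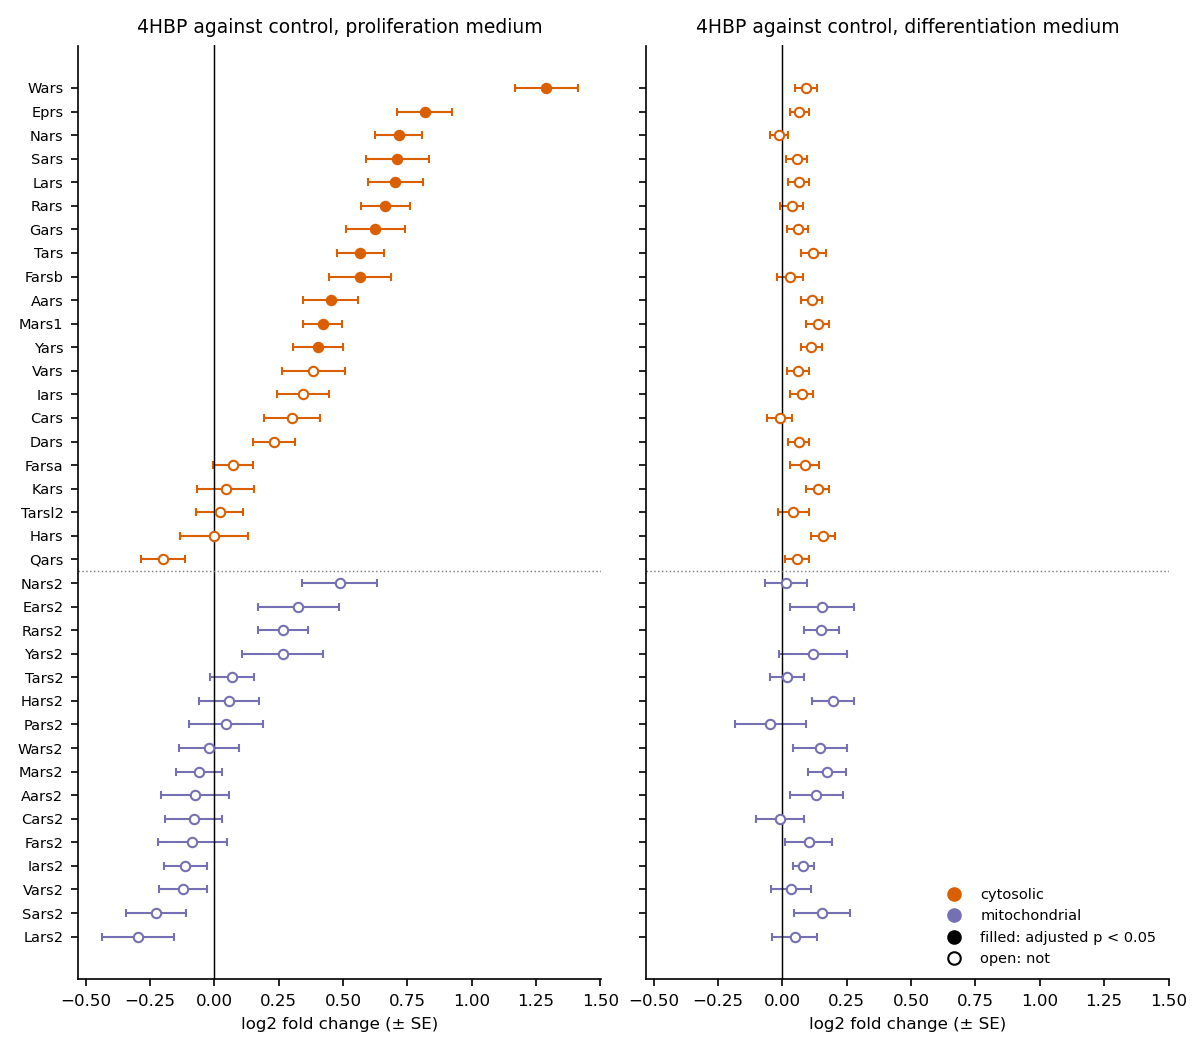
Log2 fold change of 4HBP against control (x axis) with its SE (bars) for the 37 synthetase genes (y axis) in proliferation medium (left) and differentiation medium (right); orange marks cytosolic and purple mitochondrial genes, and filled points passed an adjusted p under 0.05. In proliferation medium 12 cytosolic genes are filled and 0 mitochondrial ones, and in differentiation medium all points are open and lie between -0.05 and 0.20.

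Among mitochondrial genes the smallest p was that of Nars2, the asparagine enzyme (chr7:96951505-97064758, plus strand). It was at 15.58, 17.32 and 21.84 CPM with 4HBP and at 14.35, 12.83 and 11.85 CPM in controls, a log2 fold change of 0.49 (SE 0.15, adjusted p = 0.0747, edgeR), with replicate 3 of the treated libraries highest. Rars2, for arginine, was at 40.21, 42.08 and 37.21 CPM against 36.07, 29.26 and 34.03 CPM, a log2 fold change of 0.27 (SE 0.10, adjusted p = 0.127). Ears2, for glutamate, was at 8.817, 8.899 and 9.184 CPM against 5.711, 7.598 and 8.135 CPM (0.33 on the log2 scale, SE 0.16, adjusted p = 0.23). In these 3 genes the groups did not overlap although the test was not passed.

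The other mitochondrial genes lay on both sides of 0. Lars2, for leucine, was at 45.6, 46.24 and 36.74 CPM with 4HBP and 64.24, 44.65 and 49.06 CPM in controls, a log2 fold change of -0.30 (SE 0.14, adjusted p = 0.229, edgeR). Sars2, for serine, was at 10.58, 11.66 and 10.92 CPM against 13.47, 11.59 and 13.69 CPM (-0.23, SE 0.12, adjusted p = 0.272). Yars2, for tyrosine, was at 7.347, 8.464 and 7.45 CPM against 7.468, 5.378 and 6.498 CPM (0.27, SE 0.16, adjusted p = 0.338). The groups overlapped in these 3 genes. Tars2, Hars2, Pars2, Wars2, Mars2, Aars2, Cars2, Fars2, Iars2 and Vars2 had log2 fold changes from -0.12 to 0.07 and adjusted p-values from 0.454 to 0.94. The exons of Iars2 overlap genes on the opposite strand over 24.18% of their length.

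The number of cytosolic genes called depended on single libraries, and so did the number over all genes. Without replicate 1 or 2 of the controls the cytosolic count was 3 or 4, and without replicate 2 of the 4HBP libraries it was 7. Without replicate 3 of these, which stood apart, it was 14, with 0 mitochondrial genes called. Over all genes 1074 were called in the main fit, 107 without control replicate 1 and 1429 without 4HBP replicate 3. Wars, Nars and Eprs passed in all 6 fits that leave out 1 library. The limma test on log2(CPM + 1) with the study's thresholds (p under 0.05 and a log2 change over 0.58) called 9 cytosolic and 0 mitochondrial genes, where it called 1.13% of 27295 genes as higher and 0.989% as lower. With Benjamini-Hochberg adjustment the same limma test called 0 of the 37 genes.

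Enzymes for the same amino acid could be set side by side in 17 pairs of a cytosolic and a mitochondrial gene, counting Eprs against both Ears2 and Pars2 and both phenylalanine subunits against Fars2. The cytosolic member had the higher log2 fold change in 16 of the 17 pairs, and the median difference was 0.49. The gap was widest for tryptophan (Wars 1.29, Wars2 -0.02), leucine (Lars 0.70, Lars2 -0.30) and serine (Sars 0.71, Sars2 -0.23). Histidine was the exception, with Hars at 0.00 and Hars2 at 0.06. The Hars and Hars2 genes lie head to head and overlap on opposite strands over 7.97% and 4.56% of their exons.

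**Figure D3:**
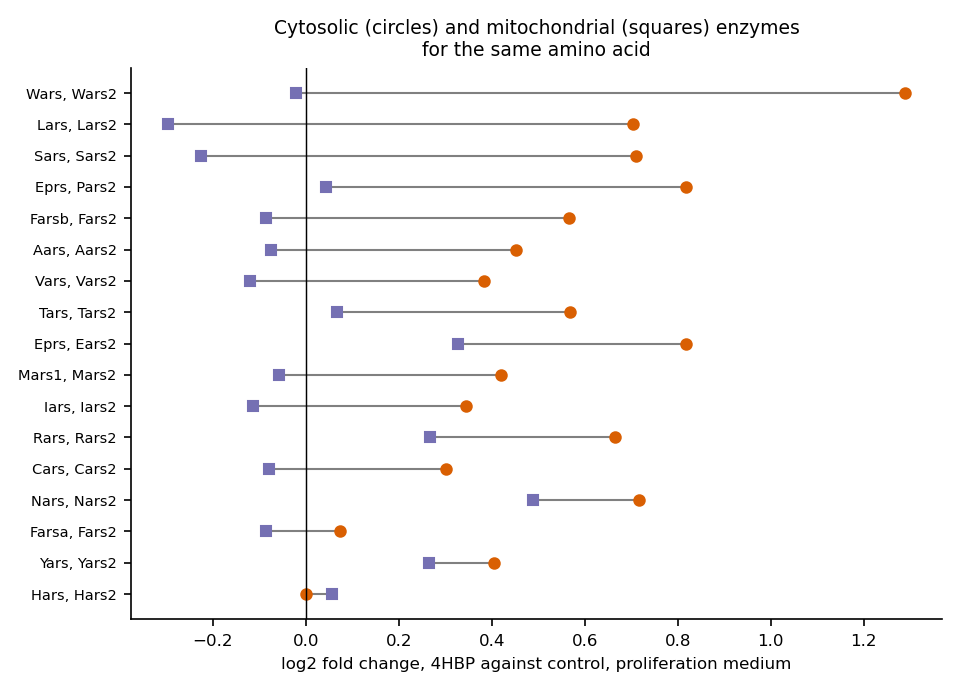
Log2 fold change of 4HBP against control in proliferation medium (x axis) for cytosolic (circles) and mitochondrial (squares) synthetases that charge the same amino acid (y axis, 17 pairs joined by lines). The circle lies to the right of the square in 16 pairs, with Hars and Hars2 as the exception.

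Summed over the 21 cytosolic genes the level was 4339, 4816 and 4745 CPM with 4HBP and 3202, 2830 and 3520 CPM in controls of the proliferation medium (4633 ± 257 and 3184 ± 345, SD, n = 3 each). The 16 mitochondrial genes summed to 416.8, 416.5 and 386.2 CPM with 4HBP and 434.6, 393.4 and 419.9 CPM in controls. The cytosolic sums of the groups did not overlap and the mitochondrial sums did. On the TPM scale, which corrects for gene length, the ratio of cytosolic to mitochondrial sums within a library was 11.8 ± 1.02 with 4HBP and 8.30 ± 0.59 in controls (SD, n = 3 each). No test was made on these sums, since the genes were chosen with earlier results of these data known.

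**Figure D4:**
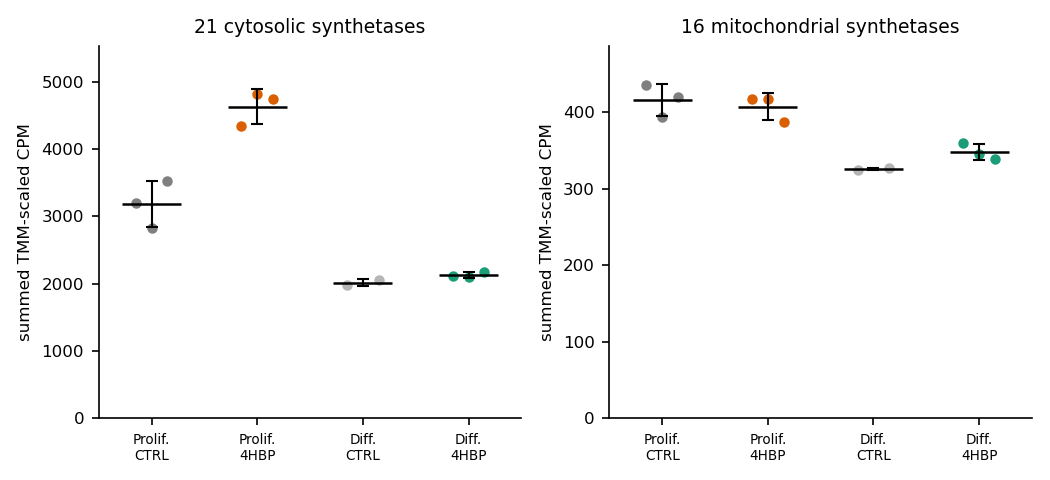
Summed level of the 21 cytosolic (left) and 16 mitochondrial (right) synthetases in TMM-scaled CPM (y axis, from 0) in each library (points), by medium and treatment (x axis), with group mean (line) and SD (bars; n = 3, and 2 for differentiation controls). The proliferation libraries with 4HBP sum to 4339 to 4816 for cytosolic genes, above the 2830 to 3520 of their controls.

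Within the cytosolic group, the 12 genes listed as ATF4 targets (Aars, Cars, Eprs, Gars, Iars, Lars, Mars1, Nars, Sars, Tars, Wars and Yars) and the other 9 differed in their counts. Of the listed genes 10 rose and all 12 had treated libraries above the controls, with a median log2 fold change of 0.60. Of the other 9 genes 2 rose (Rars and Farsb), with a median of 0.07. Of all genes tested 3.74% rose and 16.1% had treated libraries above the controls. Of the 8 genes of the multi-synthetase complex 4 rose (Eprs, Lars, Mars1 and Rars), with a median of 0.38, and of the 13 outside it 8 rose, with a median of 0.45. Of 9 class I enzymes 5 rose and of 11 class II enzymes 6 rose, with medians of 0.40 and 0.45. Without 4HBP replicate 3, 11 of the 12 listed genes rose and 3 of the other 9, 5 of the 8 genes of the complex and 9 of the 13 outside it, and 7 class I and 6 class II enzymes. Without this library 716 of all 14655 genes tested rose. The difference between these subgroups was not tested. The lists were drawn up with earlier results of these data known, which may have shaped these counts.

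The 3 scaffold genes of the complex all rose: Aimp1 by 0.40, Aimp2 by 0.49 and Eef1e1 by 0.51 on the log2 scale (adjusted p = 0.0239, 0.0318 and 0.033, edgeR). Of the 26 genes listed for the ATF4 pathway 16 rose and 0 fell, where 3.74% of all genes tested rose and 3.69% fell. The median log2 fold change was 0.84, and 5 of the 26 lay below 0. The groups did not overlap in 17 as higher and in 1, Ddit4, as lower, against 16.1% and 15.1% of all genes tested. Ddit4 was at 43.35, 57.41 and 50.09 CPM with 4HBP and 65.26, 66.31 and 59.13 CPM in controls. Atf5, a transcription factor of this pathway, had a log2 fold change of 1.89 (adjusted p = 0.000882), Shmt2, a mitochondrial serine and glycine enzyme, 1.08 (0.000882), Slc7a5, an amino acid transporter, 1.12 (0.00201) and Nupr1 2.58 (0.0023). Atf4 itself was at 488.4, 509.5 and 440.6 CPM with 4HBP and 298.5, 253.3 and 396.7 CPM in controls, a log2 fold change of 0.60 (adjusted p = 0.0414). It did not overlap between the groups. Ddit3 was at 20.72, 26.65 and 45.41 CPM with 4HBP and 13.82, 10.07 and 22.57 CPM in controls, and these values overlapped. Its group means were 30.93 CPM with 4HBP (SD 12.9) and 15.48 CPM in controls (SD 6.42). The symbol Ddit3 belongs to 2 gene identifiers, and these values are those of 1. Without 4HBP replicate 3 the counts were 3 scaffold genes and 15 genes of the ATF4 pathway, where 716 of all 14655 genes tested rose.

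Partners of the synthetases further along translation did not pass the test, where 3.74% of all genes tested rose and 3.69% fell. Of the 6 cytosolic elongation genes 0 were called (edgeR and adjusted p under 0.05), with a median log2 fold change of 0.02, for example Eef1g at 0.07 and Eef2 at -0.07. Of the 5 mitochondrial elongation genes 0 were called, with a median of -0.14, for example Tufm at -0.25 (adjusted p = 0.164) and Guf1 at -0.14. Of the 4 genes for mitochondrial glutaminyl- and formylmethionyl-tRNA 0 were called, with a median of 0.11, and Qrsl1, a subunit of the amidating enzyme, was at 0.31 (adjusted p = 0.161). Of the 7 selenocysteine and editing genes 0 were called, with a median of 0.11, for example Dtd1 at 0.20. At an unadjusted p under 0.05 the list counts were 0, 1, 1 and 0 in that order, with Tufm and Qrsl1 as the genes.

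Markers of cell types also moved with 4HBP in proliferation medium. Of the 4 astrocyte markers Gfap and Aqp4 fell (log2 fold changes -0.68 and -0.66, adjusted p = 0.00987 and 0.0169, edgeR). Over all genes tested 3.69% fell and 3.74% rose. The 4 astrocyte markers summed to 2561 to 2911 CPM with 4HBP and 3753 to 4456 CPM in controls. Of the 8 NSC markers, which include Top2a and the proliferation gene Mki67, 0 passed. Their sums were 4570 to 5464 CPM with 4HBP and 4927 to 5855 CPM in controls. At an unadjusted p under 0.05 there were 4 of them, all lower with 4HBP. Of the 6 oligodendrocyte lineage markers 0 passed, with sums of 1926 to 3314 and 3165 to 3769 CPM and 2 at an unadjusted p under 0.05. Of the 5 neuron markers 0 passed, also at an unadjusted p under 0.05, with sums of 935 to 940.4 CPM with 4HBP and 954.9 to 1053 CPM in controls. The lowest NSC and oligodendrocyte sums with 4HBP were those of replicate 3. Replicates 1 and 2 had 5158 and 5464 CPM for NSC markers and 3314 and 3020 CPM for oligodendrocyte lineage markers. Without replicate 3, 3 astrocyte markers fell and 0 of the other 3 lists passed, where 713 of all 14655 genes tested fell. The oligodendrocyte median log2 fold change was -0.34 with replicate 3 and -0.10 without it. The part of the marker shifts in the synthetase values was not tested. In bulk libraries fewer cells of a type and less RNA per cell cannot be told apart.

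In differentiation medium no synthetase mRNA passed the test for 4HBP. Among 15484 genes tested by edgeR, 0 of the 21 cytosolic and 0 of the 16 mitochondrial genes passed, where 1.26% of all genes rose and 1.29% fell. At an unadjusted p under 0.05 there were 7 cytosolic genes (Aars, Hars, Kars, Mars1, Tars, Wars and Yars) and 3 mitochondrial genes (Hars2, Mars2 and Rars2), all higher with 4HBP, and DESeq2, voom and limma called 0 of the 37. The study's limma thresholds called 0.114% of genes as higher and 0.0659% as lower here. The largest cytosolic log2 fold change was 0.16 for Hars (SE 0.05, adjusted p = 0.0999) and the largest mitochondrial one 0.20 for Hars2 (SE 0.08, adjusted p = 0.232).

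The estimates were small but mostly of one sign. In 19 of 21 cytosolic and 14 of 16 mitochondrial genes the fold change was above 0, with medians of 0.06 and 0.11 on the log2 scale, beside 0.00 over all genes tested. The groups did not overlap in 13 cytosolic and 7 mitochondrial genes, all higher with 4HBP, against 17.4% of all genes in that direction and 15.5% in the other. Wars was at 93.34, 88.8 and 91 CPM with 4HBP and at 83.67 and 86.27 CPM in the 2 controls, a log2 fold change of 0.09 (SE 0.04, adjusted p = 0.295, edgeR). Nars was at 157.6, 153.6 and 156.5 CPM against 156 and 156.9 CPM, and these values overlapped. Replicates lay closer together in this medium, with a common biological coefficient of variation of 0.0368 against 0.117 in proliferation medium. The cytosolic enzyme was above its mitochondrial partner in 4 of 17 pairs, with a median difference of -0.02. Of the 3 scaffold genes 0 passed. The 26 genes of the ATF4 pathway had a median of -0.04, and 1 rose (Slc7a11) and 2 fell (Atf5 and Slc7a5). Over all genes tested 1.26% rose and 1.29% fell.

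The effect of 4HBP was then compared between the media in 1 fit of the 11 libraries. This fit gives each gene 1 spread for both media, so its p-values rest on libraries that varied unequally. The common biological coefficient of variation was 0.0907 in this fit, against 0.117 in proliferation and 0.0368 in differentiation medium alone. The effect in proliferation medium minus that in differentiation medium passed the edgeR test for 7 of 21 cytosolic genes, all positive, and for 0 of 16 mitochondrial genes, where 2.01% of 15920 genes passed as positive and 2.48% as negative. The difference was 1.19 for Wars (SE 0.15, adjusted p = 0.00185), 0.74 for Eprs (SE 0.13, 0.00769), 0.72 for Nars (SE 0.10, 0.00319), 0.63 for Lars (SE 0.13, 0.0195) and 0.62 for Rars (SE 0.12, 0.0123), all on the log2 scale. Sars and Gars had differences of 0.65 and 0.56 (adjusted p = 0.0314 and 0.0452). In differentiation medium the same genes kept within a narrow range: Eprs was at 260.1, 256 and 263.8 CPM with 4HBP and 239.5 and 254.7 CPM in controls, Lars at 79.22, 81.61 and 83.04 against 77.24 and 77.47 CPM, and Rars at 65.93, 65.88 and 67.73 against 63.04 and 66.01 CPM.

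The medians of the difference were 0.32 for cytosolic and -0.15 for mitochondrial genes, beside 0.00 over all genes tested. Among mitochondrial genes Nars2 (0.46, adjusted p = 0.177) and Sars2 (-0.39, adjusted p = 0.203) had an unadjusted p under 0.05, and DESeq2 called 0 of the 16. Tars, at 0.44 with an adjusted p of 0.0522, and Farsb, at 0.53 with 0.0756, lay just outside the threshold. Leaving out a single library gave 2 (without differentiation control replicate 2) to 12 (without proliferation control replicate 3) cytosolic calls, with 3 without differentiation control replicate 1, 4 without replicate 1 or 2 of the differentiation libraries with 4HBP, and 9, beside 0 mitochondrial ones, without the 4HBP library that stood apart. Where a differentiation control is left out, its group holds 1 library, which is assumed to vary like the other groups. Wars and Nars passed in all 11 of these fits.

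Between media, most synthetase mRNAs were lower in differentiation medium. In control cultures 16 cytosolic genes fell and 1, Tarsl2, rose, and 8 mitochondrial genes fell and 1, Nars2, rose, where 30.8% of all genes tested rose and 30.6% fell (edgeR, adjusted p under 0.05). The medians were -0.62 for cytosolic and -0.24 for mitochondrial genes on the log2 scale, beside 0.03 over all genes tested. With library totals in place of TMM scaling the mitochondrial median was -0.15 and the median of all genes 0.11. The cytosolic and mitochondrial sums were 1975 and 2050 CPM and 324.8 and 326.9 CPM in the 2 differentiation controls. On the TPM scale the ratio of cytosolic to mitochondrial sums was 6.09 ± 0.0764 (SD, n = 2) in differentiation controls and 8.30 ± 0.59 (SD, n = 3) in proliferation controls.

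Tars had the largest decrease in control cultures, from 124, 109.2 and 139.5 CPM in proliferation medium to 59.6 and 59.38 CPM in differentiation medium, a log2 fold change of -1.06 (SE 0.09, adjusted p = 4.6e-07, edgeR). Iars went from 193.4, 177.1 and 233.1 CPM to 98.66 and 107 CPM (-0.97, SE 0.10, adjusted p = 2.22e-06). Kars, whose gene serves both compartments, went from 174.4, 158.1 and 189 CPM to 87.33 and 93.36 CPM (-0.94, SE 0.11, adjusted p = 6.32e-06). In these 3 genes each library in differentiation medium was below each in proliferation medium. Nars and Sars had like log2 fold changes of -0.94 and -0.92.

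Of the mitochondrial genes, Aars2, for alanine, went from 18.21, 19.19 and 16.42 CPM to 9.919 and 9.34 CPM, a log2 fold change of -0.90 (SE 0.13, adjusted p = 6.48e-05, edgeR). Rars2 went from 36.07, 29.26 and 34.03 CPM to 21.43 and 21.1 CPM (-0.64, SE 0.09, adjusted p = 6.47e-05). Mars2, for methionine, went from 31.39, 29.95 and 35.66 CPM to 21.2 and 21.64 CPM (-0.59, SE 0.09, adjusted p = 6.46e-05). Again the media did not overlap. Iars2, Wars2, Sars2, Tars2 and Vars2 also fell, with log2 fold changes from -0.53 to -0.30, and Nars2 rose by 0.36 (adjusted p = 0.036). The call of Nars2 was kept in 2 of 5 fits that leave out 1 control library (adjusted p from 0.0259 to 0.193), and its log2 fold change in 4HBP cultures was -0.11.

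Wars and Yars did not pass in control cultures (log2 fold changes -0.08 and -0.07, adjusted p = 0.55 and 0.527, edgeR), nor did Farsb (-0.22, 0.119) and Vars (-0.20, 0.164). Tarsl2, a second threonine gene closely related to Tars, rose from 28.75, 30.89 and 30.65 CPM to 35.8 and 34.28 CPM (0.22, SE 0.08, adjusted p = 0.0329). The call of Tarsl2 was kept in 2 of 5 fits that leave out 1 control library (adjusted p from 0.0419 to 0.184), while its fold change stayed above 0 in each. All 8 genes of the multi-synthetase complex fell, and so did the 3 scaffold genes, with medians of -0.69 and -0.34. In this comparison 30.6% of all genes tested fell and 30.8% rose. Of the 6 cytosolic elongation genes 5 fell, with a median of -0.71, and of the 5 mitochondrial elongation genes 4 fell, with a median of -0.25.

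In cultures with 4HBP 19 cytosolic genes fell from proliferation to differentiation medium. Tarsl2 rose (0.25, adjusted p = 0.00914, edgeR) and Hars did not pass (-0.26, adjusted p = 0.0546). Among mitochondrial genes 6 fell (Aars2, Iars2, Mars2, Rars2, Tars2 and Wars2). The groups compared share no library with those in controls. Both comparisons take their spread from 1 fit of 11 libraries, so their p-values are not independent. Of all genes tested 33.3% rose and 33.8% fell. The medians were -1.15 for cytosolic and -0.11 for mitochondrial genes, beside 0.01 over all genes tested. Without the 4HBP library that stood apart, 20 cytosolic genes fell and 1 rose, and 7 mitochondrial genes fell and 1 rose. Of all 15858 genes tested there, 5448 rose and 5467 fell. The largest decreases were those of Nars (-1.67, from 474.5, 518.7 and 490.1 to 157.6, 153.6 and 156.5 CPM), Sars (-1.57) and Tars (-1.50), with adjusted p-values of 6.05e-10, 3.25e-08 and 3.92e-09 (edgeR). Wars, with -0.08 in control cultures, had -1.27 in 4HBP cultures, and the test of this difference is the one given above for the effect of 4HBP between the media. Of the 17 pairs the cytosolic enzyme had the higher value in 0 here, with a median difference of -0.91, and in 4 in control cultures, with a median difference of -0.43.

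**Figure D5:**
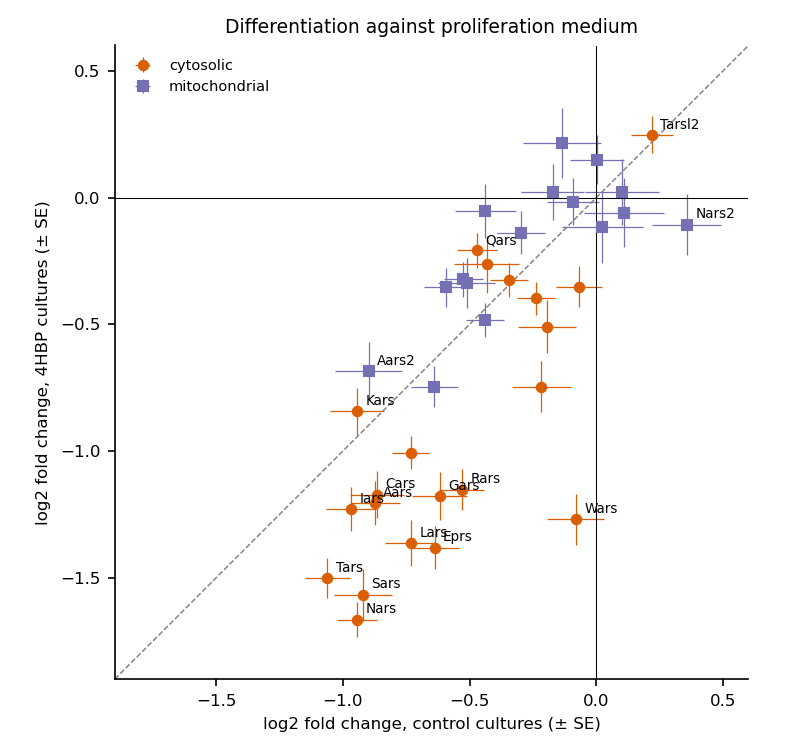
Log2 fold change of differentiation against proliferation medium in control cultures (x axis) and in cultures with 4HBP (y axis), each with its SE, for 21 cytosolic (circles) and 16 mitochondrial (squares) synthetases; the dashed line marks equal values. Wars lies at -0.08 and -1.27, and Nars at -0.94 and -1.67, below the line, while Kars, at -0.94 and -0.84, and Tarsl2 lie near it.

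The cell type markers differed between the media as well, which the design does not separate from the synthetase values. In control cultures all 8 NSC markers fell, among them Top2a and the proliferation gene Mki67. Shares over all genes tested were 30.8% higher and 30.6% lower. The NSC markers summed to 4927 to 5855 CPM in proliferation and 1620 to 1626 CPM in differentiation medium. The oligodendrocyte lineage markers summed to 3165 to 3769 and 7269 to 7602 CPM. Of the 4 astrocyte markers 2 fell (Gfap and Aldh1l1, log2 fold changes -0.62 and -1.59) and 2 rose (Aqp4 and S100b, 0.27 and 1.07), with sums of 3753 to 4456 and 2706 to 2972 CPM. Of the 5 neuron markers 3 rose (Dcx, Rbfox3 and Snap25) and Map2 fell, with sums of 954.9 to 1053 and 900.6 to 934.3 CPM. Their part in the lower synthetase levels cannot be told apart from the medium itself.

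Levels of different genes were compared on the TPM scale within each library. A gene's TPM was not compared between media because a single short mitochondrial gene, mt-Atp8, takes 12.97% to 15.95% of TPM in proliferation and 4.48% to 4.79% in differentiation libraries; ratios within a library do not depend on that share. Sars was the highest cytosolic gene in each of the 11 libraries, with a mean of 328.2 TPM over them. It was at 499.5, 584.3 and 707.8 TPM with 4HBP and 367.0, 318.1 and 395.9 TPM in controls of the proliferation medium, and at 148.5, 146.6 and 152.2 TPM with 4HBP and 141.4 and 148.9 TPM in controls of the differentiation medium. Tarsl2 was the lowest cytosolic gene in each library, with a mean of 16.9 TPM and values of 13.35, 14.28, 12.96, 12.98, 13.2 and 13.56 TPM in the proliferation libraries, treated ones first, and 20.31, 24.15, 20.07, 20.77 and 19.8 TPM in the differentiation libraries.

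Iars2 had the highest mitochondrial mean over the libraries, 36.0 TPM, and was highest in 9 of the 11, with Rars2 above it in the other two (36.64 and 40.66 TPM in 4HBP replicates 1 and 2 of the proliferation medium). Iars2 stood at 35.44, 36.89 and 33.75 TPM under 4HBP and 40.14, 35.09 and 39.61 TPM in controls of the proliferation medium, and 34.28, 36.21 and 34.46 TPM and 34.76 and 35.45 TPM in differentiation medium. Mars2 had the lowest mean, 3.67 TPM, between 3.34 and 4.08 TPM, and was lowest in 8 libraries, while Ears2 was lowest in the 3 proliferation controls (2.69, 3.35 and 3.69 TPM). Tarsl2 lay below 2 to 8 mitochondrial genes in every library. Vars lay below at least 1 mitochondrial gene in 3 libraries and Farsa in 2, and the other cytosolic genes lay above all mitochondrial genes in each library.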

How the data were processed

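RNA sequencing of 11 libraries was analysed. The authors made the libraries with a stranded mRNA kit, trimmed reads with cutadapt and quantified genes of the mm10 (GRCm38) build with RSEM 1.3.0 and Bowtie2 2.2.9. The deposited expected counts are RSEM's gene counts without normalization, and the deposited TPM values are scaled by RSEM for gene length and depth. FPKM values were not used. Genes were matched by identifier to a GENCODE annotation of the same build.

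Expected counts were rounded and tested with edgeR 4.0.16 (quasi-likelihood test, filterByExpr, TMM scaling, two-sided, Benjamini-Hochberg adjustment over all genes tested, called at an adjusted p under 0.05). The 4HBP comparisons were fitted within each medium, and the comparisons between media and the difference of the effects in 1 fit of 11 libraries. Levels are CPM with TMM scaling over 11 libraries. Depth (20822921 to 23438463 counts) limits precision for counting error only. DESeq2 1.42.0, limma 3.58.1 on log2(CPM + 1) (pseudocount 1), voom, other scalings, an unfiltered fit, a block on replicate number and fits lacking 1 library each were the alternatives. Scripts were tested on simulated data.

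The members and gene lists (ATF4 targets, complex members, pathway and marker lists) were chosen with earlier results of these data known, so no test over a list was made. Values in every library are given for the 6 genes per compartment with the smallest p in proliferation medium, the 3 with the largest change between media, up to 5 genes that passed for the difference of effects, and the highest and lowest mean TPM; list genes named have the smallest p. CPM values per library of Atf4, Ddit3, Ddit4, Qars, Sars and Tarsl2 were added after their values were seen.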

Additional observations from a re-analysis of the deposited data

Results flagged for a closer look

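The effect of 4HBP differed between proliferation and differentiation medium for 7 cytosolic synthetases, by edgeR's test of the difference itself over 11 libraries. The differences on the log2 scale, proliferation minus differentiation medium, were 1.188 for Wars, 0.744 for Eprs, 0.721 for Nars, 0.646 for Sars, 0.632 for Lars, 0.621 for Rars and 0.558 for Gars. With 2 or 3 libraries per group, Dixon's test of single samples was not made for the synthetase values; the 4HBP library that stood apart in proliferation medium was found by comparing replicates over all genes.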

How the results depend on the processing

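Over the alternatives run, 752 of 834 recomputed values kept their direction and call or moved little. Of 185 fold changes (37 genes in 5 comparisons) 33 changed sign under some alternative, 0 of them called. In proliferation medium 12 cytosolic genes were called, 0 with limma and adjusted p, and 3 to 15 when 1 library was left out; mitochondrial calls, 0 in the main test, were 1 without the filter (Nars2), 1 with DESeq2 (Nars2) and 2 in the fit of 11 libraries (Nars2 and Rars2). For the difference of effects, 7 cytosolic genes were called, 2 with limma and adjusted p, and 2 to 12 when 1 library was left out. Between media the study's limma thresholds, which include a minimum fold change, called 9 cytosolic genes instead of 17 and 1 mitochondrial gene instead of 9 in control cultures, and 2 mitochondrial genes instead of 6 in 4HBP cultures. Replicate numbers did not pair the libraries (correlations of deviations from -0.127 to 0.0831), and with the number as a replicate block 8 cytosolic genes were called in proliferation medium and 8 for the difference of effects. Calls over all genes in proliferation medium were 1074, and 1633 with DESeq2, 578 with the study's limma thresholds, 67 with limma and adjusted p, 534 with the replicate block, 2668 in the fit of 11 libraries and 107 to 1429 when 1 library was left out. In differentiation medium they were 395, and 778 without the filter, 49 and 0 with the limma tests, 745 with the block, 0 in the fit of 11 libraries and 77 to 288 when 1 library was left out. For the difference they were 715, and 1616 without the filter, 1086 with DESeq2, 264 with limma and adjusted p, and 124 to 1100 when 1 library was left out. Between media they were 9771 and 10692, and 5219 and 5697 with the study's limma thresholds. Unless stated, the cause was not tested.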
